A study of Mus musculus with 15 samples.

Results

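Colon of APX3330-treated mice was compared with colon of saline-treated mice at day 100 (D100) in mice given a treatment that leads to colon cancer through colitis, over all genes. By their labels the comparison takes 6 of the 15 libraries of the series, 3 of APX3330 and 3 of saline D100, and 18038 of the 56859 genes counted had enough counts to be tested. All mice were male C57BL/6J, aged 6 to 10 weeks. The protocol in the labels gives every mouse 10 mg/kg azoxymethane (AOM), a colon carcinogen, on day 0, followed by 2.5% dextran sulfate sodium (DSS) in the drinking water, an agent that wounds the lining of the colon, from day 7 to day 11, day 28 to day 32 and day 49 to day 53. During the DSS periods the APX3330 mice received a daily intraperitoneal injection of 25 mg/kg APX3330, also called E3330, and the saline mice an equal volume of saline. Control, saline D27 and saline D48, with 3 libraries each, are given beside some results, and Control is labelled as wild type only. The labels give no day for the APX3330 libraries, and they title the saline D100 libraries as cycle 2, with the day in the description. The titles of the APX3330 and saline D27 libraries name no cycle, and those of saline D48 name an earlier one. Compound and day therefore cannot be told apart in any value below. Nothing in the labels says that libraries came from separate mice, so a p-value reflects only how much these libraries vary, and that variation may be technical.

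APX3330 acts on APE1/Ref-1, the protein encoded by Apex1. This enzyme cuts DNA at abasic sites in base excision repair, and by a separate redox activity it keeps transcription factors such as AP-1, NF-kB, HIF-1, STAT3 and p53 in a state that binds DNA. APX3330 is known to inhibit the redox activity. In colon injured by DSS, some of these factors drive inflammatory genes and others act in repair of the epithelium.

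Each APX3330 library held 14987045 to 15346724 counts, and each saline D100 library 13845917 to 15830242. Pairs of libraries within a group differed by 10.4 to 40.3 chi-square units per degree of freedom, more than counting noise, so each was counted as 1 library. Markers of the labelled tissue were present in every library. All 15 goblet cell genes listed were measured, with a summed level of 49230.4 to 80878 CPM (counts per 1e6 counts of the library) in APX3330 and 60222 to 85272 in saline D100. The 20 genes of absorptive colonocytes summed to 7052 to 11074 CPM in APX3330 and 8573 to 10429 CPM in saline D100. Some libraries stood apart. In saline D100 replicate 1, genes of squamous epithelium took 0.101% of the counts, against 0.00088% to 0.00111% in APX3330 and 0.00102% and 0.00114% in saline D100 replicates 2 and 3. Outside this pair of groups, squamous genes took 0.148% and 0.0698% in Control replicates 1 and 3, skeletal muscle genes 0.223% and 0.101% there, and exocrine pancreas genes 5.07% and 1.38% in saline D48 replicates 2 and 3, against 0.0153% to 0.028% in the 6 libraries compared.

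A gene was called when edgeR's quasi-likelihood test, fitted to all 15 libraries, gave a Benjamini-Hochberg adjusted p below 0.05 over all genes tested. APX3330 differed from saline D100 in 91 genes, or 0.504% of those tested. Of these, 55 were higher in APX3330 (0.305%) and 36 were lower (0.200%). The called rises were small and the called falls larger: the median log2 fold change was 0.80 among the 55 and -1.47 among the 36, and 20 rises and 22 falls were past 1 on the log2 scale. Over all genes the median was -0.0048, with 8878 genes above 0 and 9159 below, and 2387 (13.2%) had an unadjusted p below 0.05. The 3 APX3330 values lay apart from the 3 saline D100 values in all 91 called genes. Among all genes tested, 8.22% had every APX3330 value above the saline D100 values and 8.78% had every one below. At this size, 3 against 3, the smallest p of an exact permutation test is 0.1, so the p of a single gene rests on the spread estimated across genes. Levels are given in CPM for replicates 1, 2 and 3 of each group, and a bracket after a gene holds its log2 fold change of APX3330 over saline D100 ± SE and then its edgeR adjusted p, or that p alone.

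The counts depended on single libraries. Without APX3330 replicate 1 there were 48 genes higher and 25 lower, of which 32 and 15 were among the 55 and 36. Leaving out APX3330 replicate 2 gave 7 genes higher and 5 lower, and leaving out APX3330 replicate 3 gave 4 and 5. Without saline D100 replicates 1, 2 and 3 in turn the numbers were 30 and 30, 6 and 11, and 6 and 10. Of the 30 and 30, 26 and 19 were among the 55 and 36. Of the 55 genes 3 were called in every such fit and in 7 other fits that changed the normalization, filter, test, covariates or libraries, namely Ybx2, Mapk15 and Pcsk4. Of the 36 the same held for 3, namely Plet1, Emp1 and Spats2l, of which Spats2l, at -0.98, is short of a change of 1 on the log2 scale. In contrast, 14 of the 55 and 9 of the 36 were called in none of the fits with 1 library left out, and no called gene changed sign in any of 13 alternative fits.

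**Figure D1:**
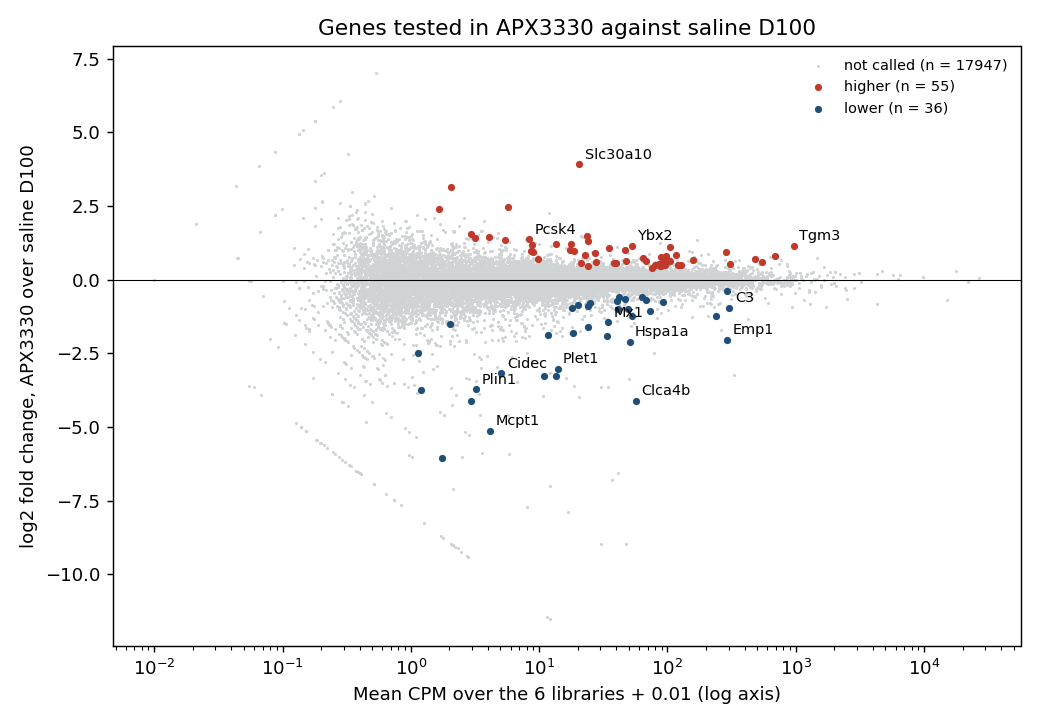
Log2 fold change of APX3330 over saline D100 (vertical axis) against the mean level over the 6 libraries in CPM plus 0.01 (horizontal log axis) for 18038 genes, with the 55 called higher in red and the 36 called lower in blue. Slc30a10 is the highest of the red points at 3.91 and Mcpt2 the lowest of the blue points at -6.04, and the grey points spread most widely at low levels.

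Apex1 itself (chromosome 14, 50924968 to 50927139, plus strand, GRCm38) was low and was not called. It had 3.31, 4.33 and 5.16 CPM in the 3 APX3330 libraries and 4.45, 6.41 and 5.94 CPM in the 3 saline D100 libraries, which overlap. Its log2 fold change was -0.39 ± 0.29 (SE), with an edgeR adjusted p of 0.604. None of the 19 tested genes of base excision and strand break repair was called, which is near the 0.504% called over all genes. Their median log2 fold change was 0.056. The one with the smallest p was Smug1, a uracil DNA glycosylase, at 29.0, 33.0 and 35.6 CPM in APX3330 and 29.1, 21.4 and 26.1 CPM in saline D100 (0.35 ± 0.12 on the log2 scale, adjusted p = 0.218). Xrcc1, the scaffold of single-strand break repair, differed by 0.27 ± 0.11 (adjusted p = 0.307), DNA polymerase beta (Polb) by -0.28 ± 0.15 (0.462) and the adenine glycosylase Mutyh by 0.51 ± 0.34 (0.563). A p above the threshold does not show that these levels were equal.

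Genes of the transcription factors under redox control by APE1/Ref-1 gave 1 call. Over all genes 0.504% were called, so 0 calls in lists this short lies near that share and says little about their members. No gene was called among 19 of AP-1 and the immediate early response (median log2 fold change -0.26), 19 of NF-kB (-0.072), 20 of HIF-1 and glycolysis (0.0024) or 14 p53 targets (-0.10). Of 13 STAT3 genes tested 1 was called (7.69%, against 0.504% of all genes), and their median was -0.76. That gene was Pim1, a serine/threonine kinase induced by STAT signalling (chromosome 17, 29490753 to 29496112, plus strand), with 16.1, 19.2 and 15.5 CPM in APX3330 against 27.6, 35.9 and 30.02 CPM in saline D100. As in all 91 called genes, the groups did not overlap, and Pim1 fell by 0.88 ± 0.16 (log2 fold change, SE, adjusted p = 0.0267). With 1 library left out its adjusted p ran between 0.0303 and 0.119, and it was called only without saline D100 replicate 1. With limma-voom and quality weights the adjusted p was 0.0579.

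Members of these lists that did not pass the test showed the following values. Among AP-1 genes, Fosb, a subunit, had 2.03, 6.93 and 7.503 CPM in APX3330 and 19.7, 13.2 and 8.80 CPM in saline D100 (log2 fold change -1.34 ± 0.51, adjusted p = 0.274). Atf3, a stress-induced factor that pairs with AP-1 subunits, had 10.3, 25.0 and 30.2 CPM in APX3330 and 33.6, 34.9 and 36.1 CPM in saline D100 (-0.67 ± 0.30, adjusted p = 0.348). In both genes APX3330 replicate 1 was the lowest library, and neither overlapped between the groups. The subunit Jund differed by -0.49 ± 0.15 (adjusted p = 0.178) and the early response gene Ier3 by -0.76 ± 0.25 (0.187); all 4 were not called. In the NF-kB list, Nfkbie, an inhibitor of the factor, had 8.24, 7.93 and 8.37 CPM in APX3330 and 11.7, 13.3 and 15.7 CPM in saline D100, without overlap (-0.73 ± 0.23, adjusted p = 0.178). The adhesion molecule Icam1 differed by -0.40 ± 0.18 (0.374), and the subunits Rel and Relb by -0.44 ± 0.24 (0.45) and 0.16 ± 0.089 (0.459). In the HIF-1 list, Bnip3, a mitophagy receptor, differed by -0.94 ± 0.32 (0.213), Pgk1 and Eno1, both glycolytic enzymes, by -0.32 ± 0.14 (0.326) and -0.22 ± 0.11 (0.391), and the oxygen sensor Egln1 by 0.22 ± 0.092 (0.326). In the p53 list, Perp, a desmosome component, differed by -0.25 ± 0.094 (0.258), the death receptor Fas by -0.42 ± 0.18 (0.326), Gdf15 by 0.50 ± 0.37 (0.608) and Phlda3 by -0.35 ± 0.25 (0.6); without saline D100 replicate 1 the log2 fold change of Phlda3 was 0.014. In the STAT3 list, the antimicrobial lectin Reg3g, at or below 6.25 CPM in every library of this comparison, differed by -3.03 ± 1.04 (0.218), Lrg1 by -1.37 ± 0.56 (0.307) and the cytokine receptor chain Il6st by -0.22 ± 0.092 (0.323).

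Genes of regenerating epithelium, which colonocytes express after injury, included the called falls with the smallest p. Emp1, a tetraspan membrane protein, had the smallest p of all genes (chromosome 6, 135362545 to 135383173, plus strand). It stood at 82.6, 106 and 156 CPM in APX3330 and 440.3, 485 and 482 CPM in saline D100. The groups lay far apart, with little spread in saline D100, and Emp1 fell by 2.03 ± 0.20 on the log2 scale (SE, edgeR adjusted p = 0.000667). With 1 library left out its adjusted p stayed between 0.00014 and 0.0157. Plet1, a surface protein of repairing colonic epithelium (chromosome 9, 50494525 to 50505482, plus strand), stood at 2.50, 3.00 and 3.62 CPM in APX3330 against 24.9, 18.9 and 30.6 CPM in saline D100. The 3 values of each group lay close together, and Plet1 fell by 3.02 ± 0.38 (adjusted p = 0.00288, between 0.00843 and 0.0388 with 1 library left out). Clca4b, of the family of calcium-activated chloride channel regulators (chromosome 3, 144910921 to 144932529, minus strand), had 4.59, 7.07 and 7.10 CPM in APX3330 and 249, 26.6 and 47.2 CPM in saline D100. Every APX3330 value was below every saline D100 value, but saline D100 replicate 1 was several times higher than its 2 companions. The log2 fold change of -4.10 ± 0.70 (adjusted p = 0.02) became -2.55 without that library, with an adjusted p of 0.0223. The call was lost without APX3330 replicate 1, 2 or 3 (adjusted p between 0.0633 and 0.107), with limma-voom and quality weights (0.155) and with a smooth muscle score as a covariate (0.09). Reads of Clca4b may be shared with the other Clca4 genes, which are close copies.

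This list, like the interferon, mast cell and adipocyte lists below, was chosen with earlier results of these data known. The shares of these lists are therefore descriptions and not tests. Of the 17 tested genes of the regenerating epithelium list these 3 (17.6%) were called lower, against 0.200% of all genes, and none higher. The list's median log2 fold change was -0.67, with 16 of 17 below 0 and 7 with all APX3330 values below saline D100, against 8.78% of all genes. Among members not called, the annexin Anxa8 had 12.5, 42.5 and 32.5 CPM in APX3330 and 146, 49.4 and 48.3 CPM in saline D100 (-1.47 ± 0.42, adjusted p = 0.137), with replicate 1 of each group standing apart from the other two, and without saline D100 replicate 1 its log2 fold change was -0.74. Ly6a, the Sca-1 surface antigen, had 274, 221 and 233 CPM in APX3330 and 386, 340.2 and 435 CPM in saline D100 (-0.67 ± 0.20, 0.144). Saline D100 replicate 1 is the library in which squamous genes took 0.101% of the counts, and their part in the values of Clca4b and Anxa8 was not tested. In bulk tissue, fewer cells of a type and less RNA per cell cannot be told apart, here and for every cell type marker below.

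**Figure D2:**
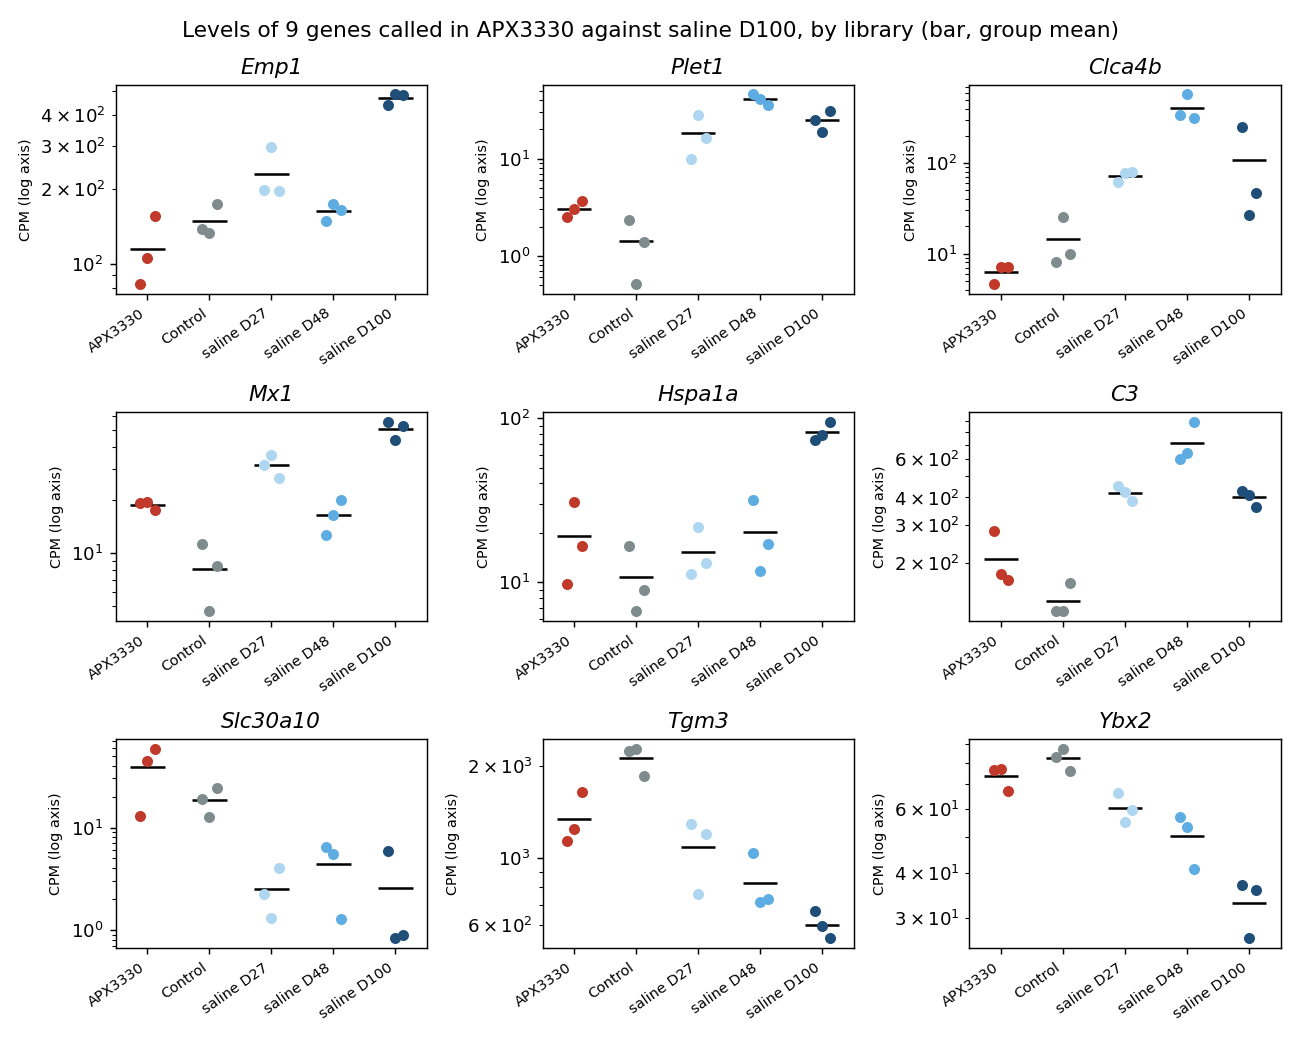
Level in CPM (log axis) of 9 called genes in each of the 15 libraries, grouped from left to right as APX3330, Control, saline D27, saline D48 and saline D100, with points for libraries and bars for group means. Emp1 and Hspa1a stand highest in saline D100, whereas Plet1, Clca4b and C3 have their highest mean in saline D48, and Slc30a10 has higher means in APX3330 and Control than in the saline groups.

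The upstream sequences of Emp1 and Plet1 are shown because both genes were called in every fit with 1 library left out and because AP-1 is one of the factors under redox control by APE1/Ref-1. Capitals mark the AP-1 motif TGANTCA, searched on both strands of the 250 bases before each RefSeq start (GRCm38.p6). The region shown for Emp1 is chr6:135362761-135362930, plus strand, and for Plet1 chr9:50494356-50494412, plus strand.
Emp1: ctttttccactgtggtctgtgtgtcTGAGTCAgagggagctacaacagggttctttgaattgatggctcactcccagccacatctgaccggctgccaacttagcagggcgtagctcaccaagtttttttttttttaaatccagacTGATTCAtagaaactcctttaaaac
Plet1: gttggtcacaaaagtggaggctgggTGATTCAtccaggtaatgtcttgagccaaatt
Emp1 held 2 copies before the first of its 2 starts and Plet1 held 1. The motif was present in 5 of the 30 called lower genes with a RefSeq promoter (16.7%), in 2 of the 33 called higher (6.06%) and in 6.22% of all 12534 tested genes with one. Besides Emp1 and Plet1, the 5 were Irgm1, Rsad2 and Cidec. Motifs of NF-kB and HIF-1, also under this redox control, were searched in the same way. The NF-kB motif was found in 76.7% of called lower genes, 81.8% of called higher and 64.7% of all. The HIF-1 motif was found in 16.7%, 27.3% and 23.8% of them. A match describes the letters and does not show that a factor binds there.

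Of 21 interferon-inducible genes tested, Mx1, Rsad2 and Ifit2 fell in APX3330 and none rose. The 3 called lower make 14.3% of the list, against 0.200% of all genes. All 21 log2 fold changes were below 0, against 9159 of all 18038, and in 18 every APX3330 value was below every saline D100 value, against 8.78% of all genes. The median was -1.04, against -0.0048 over all genes, and 17 had an unadjusted p below 0.05, against 13.2% of all genes. The summed level of the list was 721 to 1138 CPM in APX3330 and 1426 to 1936 CPM in saline D100.

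Mx1, an antiviral GTPase (chromosome 16, 97447035 to 97462907, minus strand), had 19.3, 19.4 and 17.4 CPM in APX3330 against 55.6, 43.7 and 52.8 CPM in saline D100. The APX3330 libraries were tightly grouped, and Mx1 fell by 1.44 ± 0.23 (adjusted p = 0.0176). Rsad2 encodes viperin, which blocks virus replication (chromosome 12, 26442746 to 26456452, minus strand). It had 13.4, 8.94 and 13.5 CPM in APX3330 and 42.3, 24.1 and 43.0 CPM in saline D100, and saline D100 replicate 2 was the lowest of its group without reaching the APX3330 libraries. Rsad2 fell by 1.61 ± 0.25 (adjusted p = 0.0176). Ifit2, an RNA-binding inhibitor of viral translation (chromosome 19, 34550694 to 34576419, plus strand), had 20.1, 10.1 and 12.7 CPM in APX3330 and 57.9, 33.7 and 70.0 CPM in saline D100. It fell by 1.91 ± 0.37 (adjusted p = 0.037), also with saline D100 replicate 2 the lowest of its group. Mx1 and Rsad2 were each called in 3 of the 6 fits with 1 library left out, losing the call without APX3330 replicate 2, APX3330 replicate 3 or saline D100 replicate 3, with adjusted p of up to 0.08 and 0.088. Ifit2 kept it only without APX3330 replicate 1, with up to 0.16, and missed the threshold with the smooth muscle covariate (0.0535).

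Further called genes with interferon-inducible expression, chosen after their values were seen, were also lower. Oasl1, which restrains translation of Irf7 in the mouse, had 36.4, 26.7 and 32.2 CPM in APX3330 and 90.5, 55.1 and 79.5 CPM in saline D100 (-1.24 ± 0.24, adjusted p = 0.037). Ifit1bl1, a copy within the Ifit cluster whose reads may be shared with its neighbours, had 99.6, 148 and 182 CPM in APX3330 and 451, 205 and 347 CPM in saline D100 (-1.23 ± 0.23, 0.037). Irgm1, an immunity-related GTPase of the defence against intracellular pathogens, had 76.1, 56.4 and 70.9 CPM in APX3330 and 129, 103 and 115 CPM in saline D100 (-0.77 ± 0.15, 0.0406). None of these overlapped between the groups, as in all 91 called genes, and each was called in 1 of 6 fits with 1 library left out. Members of the list that were not called included Ifit3, at 10.3, 6.93 and 4.56 CPM in APX3330 and 32.9, 10.8 and 24.8 CPM in saline D100 (-1.65 ± 0.45, 0.112), the ubiquitin-like Isg15 (-1.42 ± 0.45, 0.185), the transcription factor Irf7 (-0.62 ± 0.24, 0.28), and Irf9, whose -0.17 ± 0.12 (0.618) was the smallest difference of the list. The other saline days were not all like D100: Mx1 averaged 18.7 ± 1.11 CPM in APX3330, against 8.11 ± 3.27 in Control, 31.4 ± 4.67 at saline D27, 16.4 ± 3.76 at saline D48 and 50.7 ± 6.24 at saline D100 (SD, n = 3 each).

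**Figure D3:**
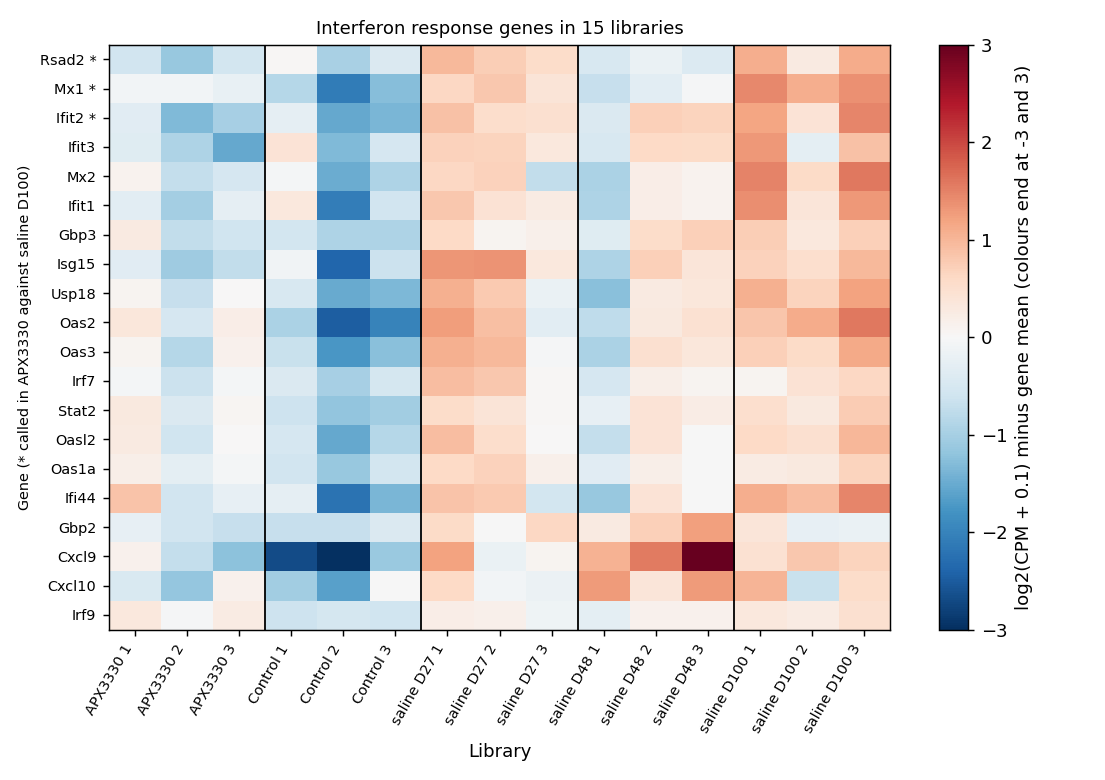
Level of 20 of the interferon response genes in each library as log2(CPM + 0.1) minus the gene's mean over 15 libraries, with libraries ordered as APX3330, Control, saline D27, saline D48 and saline D100, and an asterisk on the 3 called genes. Saline D100 columns are mostly red and APX3330 columns mostly pale or blue, with APX3330 replicate 2 the bluest of its group for many genes, and the Control columns and saline D48 replicate 1 are also mostly blue.

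Regions before 4 of these genes are shown because they hold the interferon response motif, GAAA repeated after a gap of 2 bases, which is recognised by the ISGF3 complex and by interferon regulatory factors. Capitals mark the motif as found on either strand, so it reads TTTC on both sides of the gap where it lies on the other one, and copies may overlap. Ifit3 is at chr19:34583348-34583441, plus strand, Rsad2 at chr12:26456538-26456597, minus strand, Ifit1bl1 at chr19:34602038-34602097, minus strand and Irgm1 at chr11:48871421-48871475, minus strand (GRCm38.p6, from RefSeq).
Rsad2: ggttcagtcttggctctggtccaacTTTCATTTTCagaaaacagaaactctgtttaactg
Ifit1bl1: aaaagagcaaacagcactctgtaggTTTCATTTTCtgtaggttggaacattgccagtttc
Irgm1: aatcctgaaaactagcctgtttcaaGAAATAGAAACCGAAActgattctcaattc
Ifit3: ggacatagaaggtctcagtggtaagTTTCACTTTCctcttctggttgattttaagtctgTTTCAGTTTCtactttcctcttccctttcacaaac
The motif was found in 10 of the 16 interferon genes with a RefSeq promoter (62.5%). It was found in 3 of 30 called lower genes, none of 33 called higher and 3.37% of all 12534. In Irgm1 the 2 copies overlap by 4 bases. Ifit2 and Oasl1 had no match in these 250 bases.

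Cytosolic heat shock chaperones, a list set out here after its values were seen, held 1 called gene of 18 (5.56%, called lower, against 0.200% of all genes). Hspa1a encodes the inducible form of Hsp70, which refolds damaged proteins (chromosome 17, 34969190 to 34972156, minus strand). It had 9.80, 30.8 and 16.7 CPM in APX3330 and 73.1, 78.6 and 95.3 CPM in saline D100, so the groups lay well apart, with APX3330 spread widely. Hspa1a fell by 2.11 ± 0.42 (adjusted p = 0.042), a call lost in each of the 6 fits with 1 library left out (adjusted p 0.061 to 0.147) and with the smooth muscle covariate (0.0864). Its near-identical neighbour Hspa1b, with which it can share reads, had 47.6, 200.4 and 122 CPM in APX3330 and 379, 397 and 422 CPM in saline D100 (-1.69 ± 0.41, adjusted p = 0.0777), and the co-chaperone Hsph1 had 50.8, 179.6 and 142 CPM in APX3330 and 284, 283 and 311 CPM in saline D100 (-1.24 ± 0.32, 0.1). In all 3 genes APX3330 replicate 1 was the lowest library and APX3330 replicate 2 the highest of its group. All 18 log2 fold changes were below 0, 12 genes had every APX3330 value below saline D100 (8.78% of all genes tested), and the median was -0.39. Hspa1a averaged 19.1 ± 10.7 CPM in APX3330, against 10.8 ± 5.29 in Control, 15.3 ± 5.54 at saline D27, 20.2 ± 10.4 at saline D48 and 82.4 ± 11.6 at saline D100 (SD, n = 3 each), and among these 5 groups saline D100 had by far the highest mean.

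The windows before Hspa1a and Hspa1b are shown to make plain how alike the pair is and where they carry the heat shock element GAANNTTC, in capitals. They lie at chr17:34972228-34972285, minus strand and chr17:34959310-34959367, minus strand (GRCm38.p6, from RefSeq), and the letters are identical.
Hspa1a: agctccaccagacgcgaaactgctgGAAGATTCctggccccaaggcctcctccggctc
Hspa1b: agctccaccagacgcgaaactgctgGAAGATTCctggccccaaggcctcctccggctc
This motif was found in 6 of 13 chaperone genes with a promoter (46.2%) and in 6.1% of all genes.

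Mast cell genes gave 2 calls among 9 tested (22.2%, both lower, against 0.200% of all genes). Mcpt1 and Mcpt2 are chymases of the mast cells of the gut mucosa, and as close copies they may share reads. Mcpt1 (chromosome 14, 56017971 to 56020384, plus strand) had 0.338, 0.0667 and 0.268 CPM in APX3330 and 7.63, 11.7 and 5.04 CPM in saline D100. It was near 0 in every APX3330 library and fell by 5.13 ± 0.86 (adjusted p = 0.02). Mcpt2 (chromosome 14, 56042041 to 56044642, plus strand) had 2 counts over the 3 APX3330 libraries and 153 over the 3 saline D100 libraries, a ratio of saline D100 over APX3330 of 79.5 with a 95% interval of 21.6 to 662 that covers counting error only (adjusted p = 0.02). Mcpt1 lost its call without APX3330 replicate 2 or 3 or saline D100 replicate 2, with an adjusted p of up to 0.113, and Mcpt2 without those or APX3330 replicate 1, with up to 0.107. Neither was called by limma-voom with quality weights (0.195 and 0.145). The carboxypeptidase Cpa3 had 0.338, 0 and 0 CPM in APX3330 and 1.77, 0.705 and 0.903 CPM in saline D100 (-3.23 ± 0.93, 0.136), and the IL-33 receptor Il1rl1 had 4.86, 8.27 and 8.84 CPM in APX3330 and 18.7, 17.9 and 18.2 CPM in saline D100 (-1.32 ± 0.38, 0.135), both without overlap. By contrast the chymase Cma1 differed by 0.12 ± 0.27 (0.903) and the receptor Kit, which pacemaker cells of the gut wall also express, by -0.04 ± 0.15 (0.943). Over the list the median was -1.32, 8 of 9 were below 0, and Mcpt4, Fcer1a and Ms4a2 had too few counts to be tested. The summed level of the 9 genes was 118 to 130 CPM in APX3330 and 128 to 171 CPM in saline D100, which overlap.

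Adipocyte genes gave 3 called lower of 12 (25.0%), against 0.200% of all genes. Their median was -3.26, against -0.0048, and in 10 of 12 every APX3330 value was below saline D100, against 8.78% of all genes. Plin1, the coat protein of adipocyte lipid droplets, had 1.22, 0.0667 and 0.0670 CPM in APX3330 and 5.65, 7.69 and 4.59 CPM in saline D100. It fell by 3.72 ± 0.78 (adjusted p = 0.0491), and with 1 library left out it was called only without APX3330 replicate 1, where its log2 fold change was -6.32. Cidec, which fuses lipid droplets, had 1.35, 0.733 and 0.938 CPM in APX3330 and 9.47, 11.1 and 6.85 CPM in saline D100 (-3.17 ± 0.62, 0.037), and Plin4, a further droplet coat protein, had 12.4, 15.3 and 8.91 CPM in APX3330 and 25.6, 24.3 and 21.1 CPM in saline D100 (-0.95 ± 0.19, 0.0424). Neither Cidec nor Plin4 was called in any fit with 1 library left out, where their adjusted p reached 0.159 and 0.138. Plin1, Cidec and Plin4 were also not called by limma-voom with quality weights (0.17, 0.134 and 0.0753) or with the smooth muscle covariate (0.0818, 0.0535 and 0.105). The adipokines Adipoq, Retn and Cfd were not called: Adipoq had 1.49, 0 and 0 CPM in APX3330 and 5.30, 5.83 and 4.36 CPM in saline D100 (adjusted p = 0.155), Retn 0.0676, 0.0667 and 0 CPM in APX3330 and 2.40, 0.961 and 1.81 CPM in saline D100 (0.0504), and Cfd 7.43, 0.667 and 0.402 CPM in APX3330 and 26.5, 46.7 and 29.5 CPM in saline D100 (0.084). For Plin1, Adipoq and Cfd, APX3330 replicate 1 was the highest of its group. Leptin (Lep) was at or below 0.495 CPM in all 6 libraries. The called gene Dlk1, a marker of preadipocytes, had 0, 0.133 and 0.335 CPM in APX3330 and 1.48, 1.73 and 3.46 CPM in saline D100 (-3.76 ± 0.70, 0.033). Over the whole adipocyte list the summed level was 272 to 321 CPM in APX3330 and 349 to 455 CPM in saline D100, with Pck1, which colonocytes also express, taking the largest share. The part of these transcripts in the other differences was not tested. Adipoq, Cfd, Lep and Dlk1 fall outside the rule for named genes and were chosen after their values were seen.

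Other called lower genes had varied roles. Cwh43, whose yeast counterpart remodels lipid anchors of surface proteins, had 4.73, 3.07 and 7.37 CPM in APX3330 and 19.6, 22.6 and 13.5 CPM in saline D100 (-1.88 ± 0.31, adjusted p = 0.0194), and was called in 4 of 6 fits with 1 library left out (lost without APX3330 replicate 2 or saline D100 replicate 2, up to 0.0906). Sptssb, a small subunit of the enzyme that starts sphingolipid synthesis, had 2.23, 1.33 and 2.55 CPM in APX3330 and 8.69, 17.3 and 33.3 CPM in saline D100 (-3.27 ± 0.61, 0.033), with saline D100 replicate 3 the highest. The chemokine Ccl8 had 9.59, 11.4 and 3.62 CPM in APX3330 and 19.1, 46.2 and 20.5 CPM in saline D100 (-1.80 ± 0.38, 0.047), with saline D100 replicate 2 the highest. Sptssb and Ccl8 were each called only without saline D100 replicate 1 among the fits that leave 1 library out, with adjusted p of up to 0.155 and 0.19 otherwise. By limma-voom with quality weights they had 0.0672 and 0.0753, and Ccl8 had 0.109 with the smooth muscle covariate. These 3 genes had no overlap between the groups, which holds for all 91 called genes.

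Fcgr2b, the inhibitory receptor for IgG on B and myeloid cells, had 29.1, 27.9 and 25.3 CPM in APX3330 and 48.8, 55.8 and 59.7 CPM in saline D100 and fell by 1.00 ± 0.15 (adjusted p = 0.0112). Spats2l had 34.3, 29.7 and 35.5 CPM in APX3330 and 66.2, 67.8 and 62.3 CPM in saline D100 and fell by 0.98 ± 0.12 (0.00288), with little spread in either group. Fcgr2b was called in 3 of 6 fits with 1 library left out and Spats2l in all 6. Complement component C3, chosen with the genes that follow after their values were seen, had 279, 177 and 166 CPM in APX3330 and 429.9, 412 and 362 CPM in saline D100 (-0.95 ± 0.19, 0.0424). The acute-phase protease inhibitor Serpina3n had 52.0, 49.3 and 41.0 CPM in APX3330 and 86.7, 129 and 78.6 CPM in saline D100 (-1.05 ± 0.18, 0.02), called in 3 of 6 fits with 1 library left out, against 1 of 6 for C3. Smaller falls were called for the hyaluronan receptor Cd44 (-0.61 ± 0.12, 0.0424), for Sirpa, the myeloid receptor of CD47 (-0.58 ± 0.12, 0.0424), for the actin-binding Capg (-0.73 ± 0.13, 0.02) and Tagln2 (-0.38 ± 0.077, 0.0435), for the myosin motor Myo5a (-0.80 ± 0.14, 0.0275), and for the mitochondrial protein Higd1a (-0.71 ± 0.15, 0.0467). Cd44 was also the 1 gene called of 18 Wnt targets and crypt stem cell genes (5.56%, against 0.504% of all genes). The remaining called lower genes were Sh3gl3, Myzap, Tmem238l, 2610037D02Rik and the immunoglobulin segments Igkv4-72 and Ighv1-77, whose levels depend on the clones of plasma cells present.

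No gene of the immune cell lists other than mast cells was called, against 0.504% of all genes, but their medians were mostly negative. The median log2 fold change was -0.60 over 18 macrophage and dendritic cell genes, -0.79 over 16 of plasma cells, -0.97 over 16 of neutrophils and acute inflammation, -0.35 over 18 of T and cytotoxic cells and -0.28 over 15 of B cells. Every APX3330 value was below saline D100 in 9 of the 18 macrophage genes, 6 of the 16 plasma cell genes, 4 of the 16 neutrophil genes, 5 of the 18 T and cytotoxic cell genes and 0 of the 15 B cell genes, against 8.78% of all genes, and 1 B cell gene had every APX3330 value above. The complement gene C1qb had 48.2, 47.8 and 44.5 CPM in APX3330 and 63.6, 67.6 and 87.4 CPM in saline D100 (-0.64 ± 0.15, adjusted p = 0.076). Heavy chain Igha had 3510.1, 3619.7 and 2187 CPM in APX3330 and 4166, 6049 and 6119.7 CPM in saline D100 (-0.81 ± 0.25, 0.164). The cytokine Il1b had 1.55, 3.00 and 2.75 CPM in APX3330 and 9.26, 7.95 and 6.62 CPM in saline D100 (-1.70 ± 0.48, 0.128). Of 23 chemokines and receptors Ccl8 alone was called (4.35%, against 0.504% of all genes), and the median was -0.58. C1qb, Igha and Il1b were chosen after their values were seen.

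The largest called rise was that of Slc30a10, an exporter of manganese (chromosome 1, 185454848 to 185468762, plus strand). It had 12.8, 44.4 and 58.4 CPM in APX3330 against 5.93, 0.833 and 0.903 CPM in saline D100. Replicate 1 was the lowest APX3330 library and the highest saline D100 library, and even there the values did not overlap. The log2 fold change was 3.91 ± 0.73 (adjusted p = 0.0336). Leaving out APX3330 replicate 2 or 3 or saline D100 replicate 2 or 3 ended the call (adjusted p of up to 0.138), and without saline D100 replicate 1 the log2 fold change was 5.46. The adjusted p was 0.057 by limma-voom with quality weights and 0.0582 with the smooth muscle covariate. Both of its neighbours in the table were called too: Gm2061 (chromosome 1, 185447116 to 185455568, minus strand), which overlaps the start of Slc30a10 on the other strand, at 3.15 ± 0.65 (0.0462), and 5033404E19Rik (chromosome 1, 185487294 to 185498159, plus strand) at 2.48 ± 0.42 (0.02). The strand setting of the counting is not given in the sources used here, so reads in the overlap cannot be told apart. The mean of Slc30a10 was 38.6 ± 23.3 CPM in APX3330, against 18.5 ± 5.81 in Control, 2.52 ± 1.38 at saline D27, 4.43 ± 2.77 at saline D48 and 2.56 ± 2.93 at saline D100 (SD, n = 3 each).

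The rises with the smallest p were those of Ybx2 and Pcsk4. Ybx2, a nucleic acid-binding Y-box protein known from germ cells (chromosome 11, 69935796 to 69941605, plus strand), had 76.5, 77.2 and 66.9 CPM in APX3330 against 37.0, 26.4 and 35.9 CPM in saline D100. It rose by 1.15 ± 0.14 (adjusted p = 0.00288, between 0.00959 and 0.0301 with 1 library left out). Pcsk4, a proprotein convertase (chromosome 10, 80321283 to 80329498, minus strand), had 11.6, 10.7 and 13.9 CPM in APX3330 and 5.09, 4.55 and 4.29 CPM in saline D100. It rose by 1.37 ± 0.17 (0.00288), and Reep6, which starts next to it on the opposite strand, by 0.62 ± 0.13 (0.0444). Mapk15, an atypical MAP kinase, had 11.8, 12.1 and 12.6 CPM in APX3330 and 6.22, 5.83 and 4.06 CPM in saline D100 (1.18 ± 0.16, 0.0083). In each of these 3 genes the lowest APX3330 library held well over 1.5 times the highest saline D100 library.

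Several rises were in enzymes and transporters. Tgm3, a transglutaminase that crosslinks proteins and the most abundant called gene, had 1136, 1240.0 and 1638 CPM in APX3330 against 667, 599 and 543 CPM in saline D100 and rose by 1.15 ± 0.20 (adjusted p = 0.02). Naaladl1, a peptidase of the brush border, had 30.8, 32.3 and 40.9 CPM in APX3330 and 17.2, 13.7 and 10.6 CPM in saline D100 (1.32 ± 0.20, 0.0112). The angiotensin-converting enzyme gene Ace had 77.6, 79.3 and 90.6 CPM in APX3330 and 52.4, 56.7 and 51.9 CPM in saline D100 (0.62 ± 0.093, 0.0112). Slc5a6, which takes up biotin and pantothenate, had 42.6, 54.5 and 46.9 CPM in APX3330 and 23.4, 23.3 and 21.4 CPM in saline D100 (1.08 ± 0.18, 0.0194). Slc6a7, a proline transporter, had 25.0, 21.7 and 22.8 CPM in APX3330 and 8.83, 12.1 and 13.6 CPM in saline D100 (1.01 ± 0.15, 0.0112). Tsku, a secreted leucine-rich protein that binds growth factors, had 28.6, 22.4 and 22.8 CPM in APX3330 and 13.1, 8.27 and 10.6 CPM in saline D100 (1.21 ± 0.21, 0.02). No library of one group overlapped the other in these 6 genes, nor in any of the 91 called genes. In the fits with 1 library left out, Slc6a7 kept its call in 5 of 6 (lost without APX3330 replicate 3, adjusted p = 0.051) and Ace in 4 (lost without APX3330 replicate 3 or saline D100 replicate 3, up to 0.0695). Naaladl1 was called in 3 of the 6, Tgm3 and Slc5a6 in 2 and Tsku in 1, with adjusted p of up to 0.0581, 0.109, 0.0947 and 0.105. The other named rises were those of AI854703 (1.12 ± 0.20, 0.03), Serpina9 (1.57 ± 0.33, 0.0491), Mettl7a3 (1.43 ± 0.29, 0.0435), which has close copies, and BC024139 (1.33 ± 0.28, 0.0491). With 1 library left out Serpina9 and BC024139 were called in 0 of 6 fits and Mettl7a3 in 1. Limma-voom with quality weights called none of these 3 (0.0797, 0.0538 and 0.0702), and the smooth muscle covariate ended the calls of Tgm3 (0.0535), AI854703 (0.0535), BC024139 (0.105) and Mettl7a3 (0.0833).

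**Figure D4:**
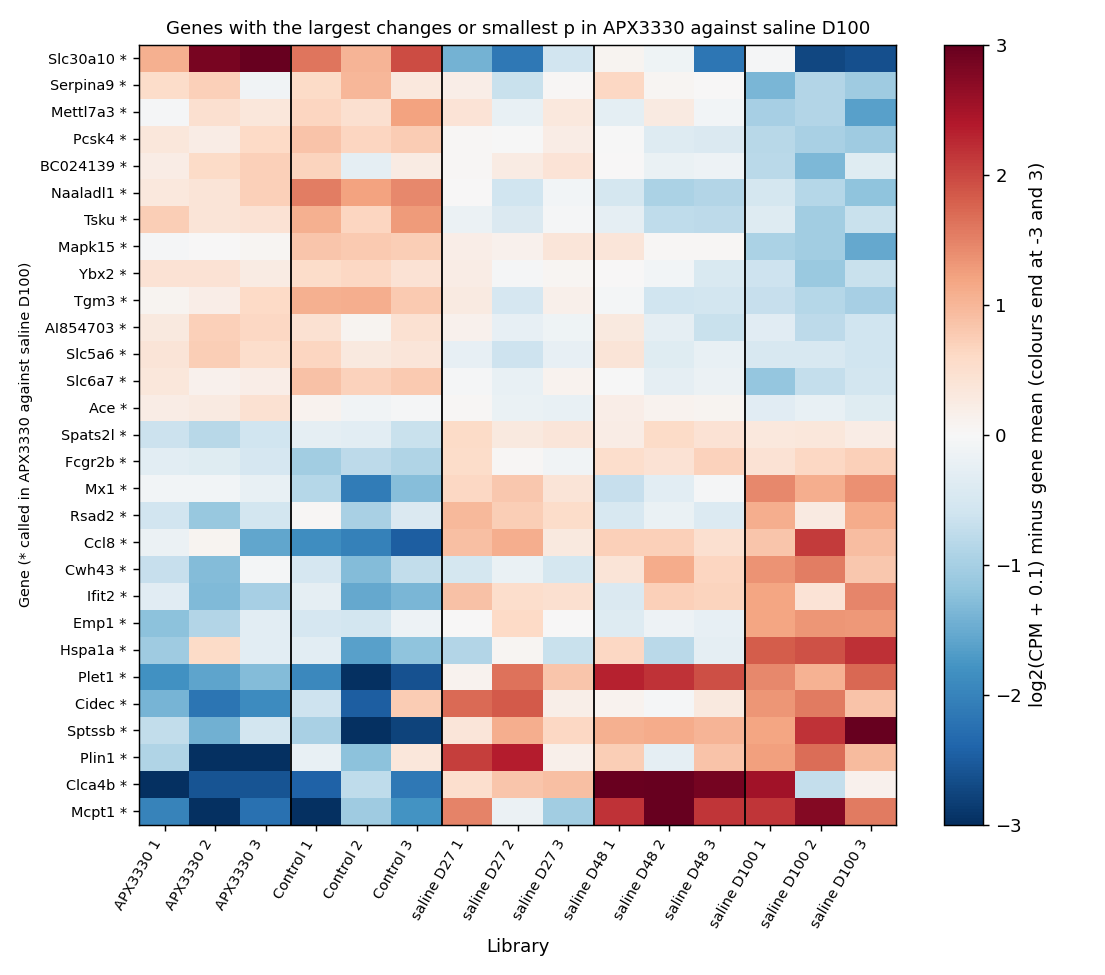
Level in each of 15 libraries, as log2(CPM + 0.1) minus the gene's mean, of 29 called genes with the largest changes or smallest p, ordered by fold change of APX3330 over saline D100 from the highest at the top. From Slc30a10 to Ace the APX3330 and Control columns are mostly red and the saline D100 columns blue, and from Spats2l to Mcpt1 the saline D100 columns are mostly red and the APX3330 columns blue.

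Called rises outside the rule for named genes, chosen after their values were seen, included enzymes of acetyl-CoA and one-carbon metabolism. ATP citrate lyase (Acly), which makes cytosolic acetyl-CoA from citrate, had 556, 639 and 777 CPM in APX3330 and 469, 374 and 469.8 CPM in saline D100 (0.59 ± 0.12, adjusted p = 0.047). It was the 1 gene called of 22 of fatty acid and cholesterol synthesis (4.55%, against 0.504% of all genes), whose median log2 fold change was -0.16. Acss2, which makes acetyl-CoA from acetate, rose by 0.50 ± 0.10 (0.0435), and Ahcy, which hydrolyses S-adenosylhomocysteine, by 0.45 ± 0.091 (0.0424). Hao2, a peroxisomal oxidase of hydroxy acids, had 303, 413 and 417 CPM in APX3330 and 183, 181 and 225 CPM in saline D100 (0.94 ± 0.18, 0.037), and Selenbp1, a methanethiol oxidase, 840.3, 861 and 919.7 CPM in APX3330 and 523, 492 and 496 CPM in saline D100 (0.79 ± 0.13, 0.02). The alcohol dehydrogenase Adh1 had 669, 608 and 505 CPM in APX3330 and 382, 379.6 and 329 CPM in saline D100 (0.71 ± 0.14, 0.037). Further enzymes were the histamine-degrading Aoc1 (0.55 ± 0.11, 0.0444), Csad, which acts in taurine synthesis (0.64 ± 0.12, 0.0336), and the insulin-degrading Ide (0.75 ± 0.15, 0.0441).

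Membrane proteins among the called rises were the serotonin transporter Slc6a4, with 31.8, 17.1 and 25.2 CPM in APX3330 and 15.3, 11.9 and 11.0 CPM in saline D100 (0.96 ± 0.20, 0.0462), the amino acid transporter Slc36a1 (0.65 ± 0.14, 0.0462), the sodium-proton exchanger Slc9a8 (0.39 ± 0.079, 0.0444), the goblet cell anion channel Best2 (0.72 ± 0.14, 0.037), Clic6 (0.55 ± 0.10, 0.0314) and Tspan33 (0.85 ± 0.17, 0.0424). Dock6, Farp1 and Spata13, exchange factors that activate small GTPases, rose by 0.51 ± 0.10 (0.0406), 0.45 ± 0.088 (0.037) and 0.49 ± 0.10 (0.0462). Tcf7l1, a transcription factor at Wnt target genes (chromosome 6, 72626378 to 72789254, minus strand), had 85.7, 119.6 and 135 CPM in APX3330 and 77.6, 63.8 and 57.0 CPM in saline D100 (0.78 ± 0.14, 0.033). The called transcripts Gm37969 (chromosome 6, 72635147 to 72638555, minus strand) at 1.48 ± 0.30 (0.0435) and Gm15401 (chromosome 6, 72629288 to 72637717, plus strand) at 1.20 ± 0.25 (0.0491) lie within its span, so the 3 calls may share reads. The serine protease Hpn (0.96 ± 0.19, 0.037), the kinase Hunk (0.89 ± 0.14, 0.0176) and Gal3st2c, a sulfotransferase with close copies (1.01 ± 0.20, 0.037), also rose. Other called higher genes were Sowaha, E430024P14Rik, Gm19696, B4galnt3, Cryzl2, Plbd1, Smim24, Hacd3, Pdzd3, 2410002F23Rik, Rep15 and Impa2.

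**Figure D5:**
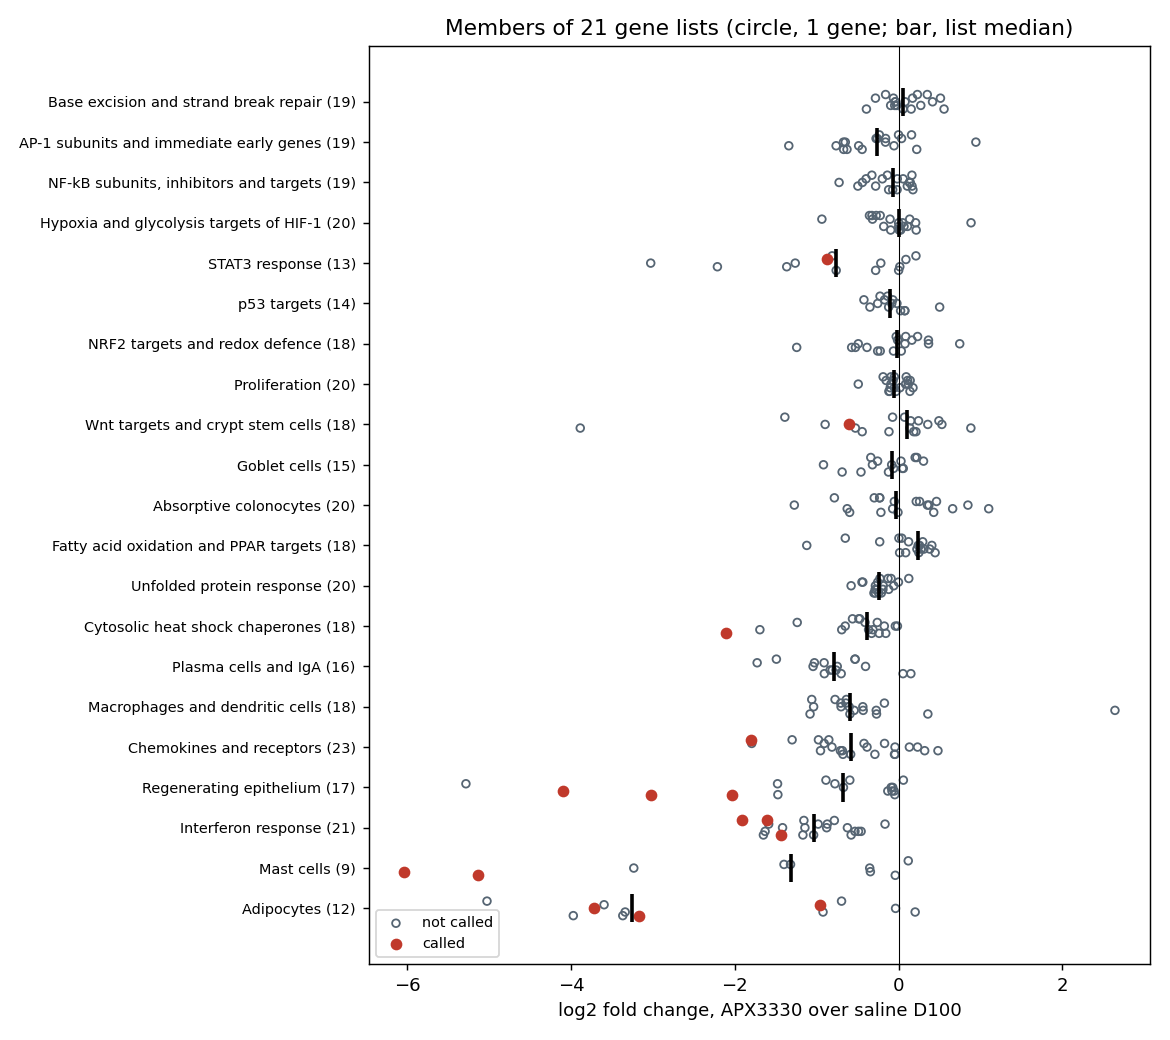
Log2 fold change of APX3330 over saline D100 for each tested gene of 21 lists, with filled red points for called genes, open points for genes not called and a bar at each list's median, and the number of genes tested in brackets. The interferon, mast cell and adipocyte lists have medians of -1.04, -1.32 and -3.26, and the AP-1 and STAT3 lists of -0.26 and -0.76. The medians of the repair, NF-kB, HIF-1 and p53 lists lie close to 0, with members on both sides.

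Lists of other tissues had large log2 fold changes without a call. Of 15 tested genes of squamous epithelium 14 had a log2 fold change below 0, and nearly all saline D100 counts of the list were in replicate 1: the keratin Krt13 had 0.135, 0.200 and 0.201 CPM in APX3330 and 284, 0.385 and 0.527 CPM in saline D100 (adjusted p = 0.155), Krt5 0.270, 0.0667 and 0 CPM in APX3330 and 182, 0.0641 and 0.376 CPM in saline D100 (0.178), Krt14 0.338, 0.800 and 1.41 CPM in APX3330 and 244, 0.769 and 0.376 CPM in saline D100 (0.175), and Krt4 0.0676, 0.0667 and 0.268 CPM in APX3330 and 100.2, 0 and 0 CPM in saline D100 (0.196). Without that library the log2 fold change of Krt14 was 0.53, and Krt4 was at 0 in the 2 remaining saline D100 libraries. Skeletal muscle genes had a median of -1.03 over 13, and Myh4 (0.306), Myh8 (0.608) and Mybpc1 (0.642) were likewise highest in saline D100 replicate 1, whereas Myh2 had 4.999, 3.87 and 4.09 CPM in APX3330 and 1.41, 2.63 and 1.505 CPM in saline D100 (0.375). All 14 exocrine pancreas genes had a log2 fold change above 0, mostly from very few counts in APX3330 replicate 1, so their size cannot be read: Pnlip had 1.62, 0 and 0 CPM in APX3330, Try5 1.01, 0 and 0 CPM and Ctrb1 3.11, 0.0667 and 0 CPM, and all 3 were at 0 in saline D100. Cela1, which intestine also expresses, had 182, 220.4 and 222 CPM in APX3330 and 143, 119 and 118 CPM in saline D100, without overlap (0.668). The spread behind these p-values takes in all 15 libraries. Among them are saline D48 replicates 2 and 3, with 5.07% and 1.38% pancreas counts, and Control replicates 1 and 3, with squamous and muscle counts. The lack of a call in these lists therefore does not show equal levels.

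Further lists of epithelial cells, redox defence, stress and the gut wall held no call, which in lists this short lies near the 0.504% of all genes. None of 20 proliferation genes was called (median -0.051), nor any of 15 goblet cell genes (-0.084), 20 of absorptive colonocytes (-0.029), 18 of redox defence (-0.02), 20 of the unfolded protein response (-0.23) or 15 of smooth muscle (-0.22). An unadjusted edgeR p below 0.05 was found in 0, 3, 9, 8, 4 and 2 of these in turn, against 13.2% of all genes. All 15 smooth muscle genes and 19 of the 20 unfolded protein response genes were below 0, against 9159 of all 18038. In 2 and 6 of them every APX3330 value was below saline D100, against 8.78% of all genes. Without overlap, 4 absorptive colonocyte genes were above saline D100 and 2 below, and 4 redox genes above and 5 below. Among all genes tested 8.22% were above in this way and 8.78% below. Medians near 0 there do not mean that the members were unchanged. Muc2, the main colonic mucin, had 12785, 10678 and 11488 CPM in APX3330 and 12438, 21293 and 22614 CPM in saline D100, which overlap (-0.69 ± 0.18, adjusted p = 0.107). The sodium channel subunit Scnn1b had 4.19, 8.94 and 8.98 CPM in APX3330 and 3.67, 2.95 and 3.69 CPM in saline D100 (1.10 ± 0.25, 0.0651), and the carbonic anhydrase Car2 853, 949.5 and 1035 CPM in APX3330 and 606, 599.7 and 589 CPM in saline D100 (0.66 ± 0.17, 0.0909). The 18 tested Wnt target and crypt stem cell genes had a median of 0.11, with 10 above 0 and 8 below. The 1 called, Cd44, was lower. Of the members above 0, Lgr5 had 8.65, 8.07 and 11.9 CPM in APX3330 and 4.52, 4.29 and 6.70 CPM in saline D100 (0.88 ± 0.32, 0.253), and Smoc2 47.8, 42.8 and 46.8 CPM in APX3330 and 37.0, 26.5 and 34.2 CPM in saline D100 (0.49 ± 0.11, 0.0643). Apart from Muc2 the groups did not overlap in the genes whose levels are given here. All were chosen after their values were seen.

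Because the labels give no day for the APX3330 libraries, the named genes were also set against the earlier saline days, here for a selection of them made after their values were seen. These comparisons share the APX3330 libraries with the one above, so they are not independent of it, and 9.08% of all genes were called against saline D27 and 19.7% against saline D48, of which replicates 2 and 3 held the exocrine pancreas counts given above. The following genes were called against all 3 saline days. Plet1 had a log2 fold change of -2.57 ± 0.38 against saline D27 (adjusted p = 0.0032) and -3.74 ± 0.39 against saline D48 (4.47e-05). Clca4b had -3.54 ± 0.69 (0.00977) and -6.04 ± 0.75 (0.00015), Spats2l -1.10 ± 0.12 (0.00127) and -1.11 ± 0.12 (6.48e-05), and Ifit2 -1.47 ± 0.37 (0.0248) and -1.24 ± 0.37 (0.0286). Slc30a10 had 3.92 ± 0.73 (0.00835) and 3.13 ± 0.69 (0.00604).

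Other genes were not called against at least 1 of the earlier days. Emp1 had -1.01 ± 0.20 against saline D27 (0.0103) and -0.51 ± 0.20 against saline D48 (0.0831), and its mean was 115 ± 37.4 CPM in APX3330, against 149 ± 22.4 in Control, 231 ± 57.1 at saline D27, 163 ± 12.8 at saline D48 and 469 ± 25.2 at saline D100. Mx1 had -0.75 ± 0.23 (0.0521) and 0.19 ± 0.23 (0.612), and Rsad2 -1.50 ± 0.25 (0.00616) and -0.38 ± 0.26 (0.322). Hspa1a had 0.32 ± 0.42 (0.662) and -0.083 ± 0.41 (0.916), and Cwh43 -0.18 ± 0.31 (0.757) and -1.35 ± 0.30 (0.0066). Among the rises, Mapk15 had -0.22 ± 0.16 (0.392) and -0.14 ± 0.16 (0.578), Pcsk4 0.32 ± 0.17 (0.225) and 0.67 ± 0.17 (0.0121), Ybx2 0.29 ± 0.14 (0.182) and 0.55 ± 0.14 (0.0121), and Tgm3 0.31 ± 0.19 (0.328) and 0.69 ± 0.19 (0.0214). Mapk15 averaged 12.2 ± 0.388 CPM in APX3330, against 20.9 ± 0.559 in Control, 14.2 ± 1.23 at saline D27, 13.4 ± 1.83 at saline D48 and 5.37 ± 1.15 at saline D100 (SD, n = 3 each, here and for Emp1).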

How the data were processed

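Colon RNA of 15 libraries in 5 groups of 3 was measured by RNA-seq after purification on a column and SMARTER library preparation, per the labels' protocols. The deposited table holds counts of reads per gene for all 15 libraries, 56859 genes in all, of which 23552 had no count. Per the submitters' processing notes the builds are GRCm38 and mm10. The aligner, the counter and their strand setting are not stated by the labels, the notes or the header, so overlapping genes and close copies may share reads. The columns matched the labels by name, and 0 columns were left without a sample.

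From the counts as deposited, genes were filtered by group with filterByExpr, scaled by TMM and tested with edgeR 4.0.16 (R 4.3.3) in 1 quasi-likelihood fit over all 15 libraries, contrast APX3330 minus saline D100, with Benjamini-Hochberg adjustment over 18038 genes and a threshold of 0.05. Levels are edgeR's CPM with TMM scaling and errors of log2 fold changes are standard errors. The script was also tested on simulated data. DESeq2 1.42.0 and limma 3.58.1 served as alternatives, with fits that changed the normalization, the filter, the libraries and the covariates. Libraries held 13548661 to 17919613 counts. Coordinates are those of GENCODE M21 (GRCm38), matched by symbol for 17270 of the tested genes, and promoters are the 250 bases before RefSeq starts (GRCm38.p6), available for 12534.

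Genes named are, per direction, the 12 with the largest changes and the 6 with the smallest p among calls averaging 2 CPM or more in these libraries, with groups that do not overlap and an established symbol, and up to 4 genes per list of the lists named for Apex1, those with 3 or more calls and those with the largest medians. Apart from Apex1, other genes given by name fall outside this rule. They are to be read as chosen after their values were seen, also where this is not said beside them. Some genes that entered the tests and counts are not reported here by name. The genes, lists and tests were chosen with earlier results of these data known. Replicate numbers did not pair the libraries: the correlations of deviations between same-numbered libraries were -0.028, 0.034 and 0.0071.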

Additional observations from a re-analysis of the deposited data

How the results depend on the processing

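Against 55 genes higher and 36 lower in APX3330, testing every gene with a count (33307 genes) gave 256 higher and 520 lower, and DESeq2's test gave 202 and 234. With the replicate block, although same-numbered libraries did not deviate together, 24 were higher and 25 lower. A fit to the 6 libraries alone gave 47 and 57, a smooth muscle covariate 31 and 32, limma-voom with quality weights 48 and 29, DESeq2 size factors 55 and 39, and a minimum change of 1 on the log2 scale 20 and 22. Similar totals did not mean the same genes. Of the 55 and 36 main calls, the fit to the 6 libraries kept 27 and 24. The smooth muscle covariate kept 27 and 19 of them, and limma-voom 43 and 20. With 1 library left out, 4 to 48 genes were higher and 5 to 30 lower; the fits without APX3330 or saline D100 libraries assume that the remaining 2 vary like the other groups. The median of all genes moved by less than 0.1 (log2) in every setting. Of the values of single named genes against saline D100 under these alternatives, 759 kept direction and side of the threshold, 147 were no longer past it, 25 were newly past it and 7 reversed. The 759 include named genes that were not called and stayed so. Only called genes could be counted among the 147, so these numbers do not measure how stable the calls were. Log2 fold changes reversed without saline D100 replicate 1 for Phlda3 (range with 1 library left out -0.51 to 0.014), Krt14 (-7.16 to 0.53), Krt4 (-8.79 to 4.12), Myh8 (-7.92 to 1.90) and Mybpc1 (-6.33 to 1.09). Without APX3330 replicate 1, Pnlip (0 to 6.63) and Try5 (0 to 5.96) had 0 counts in both groups. Against saline D27 the replicate block reversed Mutyh (-0.0007) and Myh4 (0.053). The cause was not tested. Genes under about 1 CPM rest on few counts at this depth.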

Other observations

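Genes of lipid use and of foreign compound metabolism were not called, and the values below, picked after they were seen, are descriptions. Of 18 tested genes that are PPAR targets or oxidise fatty acids 15 had a log2 fold change above 0 in APX3330 against saline D100, with a median of 0.23, and in 6 every APX3330 value was above saline D100, against 8.22% of all genes. Cpt1a, which brings fatty acids into mitochondria, had 334, 371 and 397 CPM in APX3330 and 229, 281 and 298 CPM in saline D100 (0.45 ± 0.12, edgeR adjusted p = 0.103). Fabp2, an intestinal fatty acid carrier, went the other way with 39.2, 23.7 and 36.8 CPM in APX3330 and 45.5, 96.9 and 74.5 CPM in saline D100 (-1.12 ± 0.25, 0.0586). Of 16 xenobiotic metabolism genes 11 were above 0, with a median of 0.25, and 6 had every APX3330 value above saline D100. The pregnane X receptor gene Nr1i2 had 84.2, 73.8 and 92.1 CPM in APX3330 and 57.2, 57.8 and 64.0 CPM in saline D100 (0.48 ± 0.11, 0.0643), and the sulfotransferase Sult1a1 had 223, 190.2 and 199 CPM in APX3330 and 87.1, 144 and 127 CPM in saline D100 (0.77 ± 0.19, 0.0777).

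Redox and antimicrobial genes held uncalled differences in both directions. Among NRF2 targets, Prdx6, a peroxiredoxin, had 1171, 2195 and 2115 CPM in APX3330 and 1229, 1069 and 967 CPM in saline D100 (0.75 ± 0.22, edgeR adjusted p = 0.137), with APX3330 replicate 1 inside the saline D100 range. Me1, the cytosolic malic enzyme, had 11.6, 18.3 and 10.1 CPM in APX3330 and 27.5, 41.9 and 25.1 CPM in saline D100 (-1.24 ± 0.28, 0.0643). Duox2 and its partner Duoxa2, which release hydrogen peroxide at the epithelial surface, had 127, 173 and 184 CPM and 8.65, 15.003 and 13.1 CPM in APX3330, and 377, 194 and 343 CPM and 42.9, 18.7 and 30.4 CPM in saline D100 (-0.92 ± 0.26, 0.126, and -1.32 ± 0.32, 0.0755). In Duox2 and Duoxa2 every APX3330 value was below every saline D100 value, and saline D100 replicate 2 was the lowest of its group.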
